A study of Homo sapiens with 3 samples.

Results

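The peaks described here are those nearest the short-arm ends of 13 human chromosomes in ChIP-seq lists of XPB and XPD, the helicases of the transcription and repair factor TFIIH. A peak was taken when its summit lay at or below position 2000000 (hg19) of chromosome 2, 4, 6, 7, 8, 9, 10, 11, 12, 16, 17, 18 or 20. This gave 280 of 21555 XPB peaks and 183 of 14570 XPD peaks, 463 of 36125 in all. They were set against the 914 XPB and 611 XPD peaks with summits from there to 10 Mb on the same chromosomes. The chromatin was from HT1080, an established fibrosarcoma cell line, grown without a named treatment and crosslinked with 5% formaldehyde. The groups were 1 XPB ChIP made with a rabbit polyclonal antibody against XPB, 1 XPD ChIP made with a rabbit polyclonal antibody against XPD, and 1 unenriched input, all from a single chromatin pool. No input list was used here. The shared protocol text names an antibody against CSB, a different repair protein, and the antibody field of each sample was followed instead.

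TFIIH is recruited to promoters with RNA polymerase II, where XPB works as a DNA translocase that opens the start site. XPD unwinds DNA around lesions in nucleotide excision repair, and both helicases are reported to bind G-quadruplex DNA in vitro. Chromosome ends carry the telomere repeat, and next to it lie subtelomeres, patchworks of segments that are duplicated between chromosomes. Further inward, many human short arms begin with gene-rich, GC-rich DNA. As textbook background, the end of the short arm of chromosome 16 holds the alpha-globin genes and that of chromosome 20 a cluster of beta-defensin genes. No peak was assigned to a gene and no peak sequence is shown, since no hg19 annotation or sequence was used here.

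The first question was whether peaks were denser near the ends. They were moderately denser than in the following 8 Mb, but not denser than in the zone directly beyond 2 Mb. XPB had 10.8 peaks per Mb in the first 2 Mb (95% Poisson interval 9.54 to 12.1), against 8.79 (8.23 to 9.38) from 2 to 10 Mb, a ratio of 1.23 (1.07 to 1.4). XPD had 7.04 peaks per Mb (6.06 to 8.14), against 5.88 (5.42 to 6.36), a ratio of 1.20 (1.01 to 1.42). All intervals here cover counting error only. Peaks of 1 library are not replicates and lie in clusters, so the true uncertainty is wider, and no p-value is given.

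Density did not fall evenly with distance. In successive 1 Mb windows from the end to 5 Mb, XPB had 12.2, 9.31, 11.6, 12.9 and 8.92 peaks per Mb, and from 5 to 10 Mb it had 6.69, 9.31, 8.23, 6.92 and 5.69. XPD had 7.85, 6.23, 7.54, 8.23 and 6.23 per Mb to 5 Mb, then 5, 6.46, 5, 4.46 and 4.08. The window from 3 to 4 Mb was the densest of the 10 in both lists. The stretch from 2 to 5 Mb had densities of 11.2 for XPB and 7.33 for XPD, close to the first 2 Mb: the ratio of the first 2 Mb to that stretch was 0.966 for XPB (0.828 to 1.12) and 0.960 for XPD (0.793 to 1.16). Against 5 to 10 Mb it was 1.46 (1.26 to 1.70) and 1.41 (1.17 to 1.69).

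In 250 kb bins the first 2 Mb were denser from 250 to 1000 kb, sparser from 1000 to 1500 kb and denser again beyond. From the end inward, the 8 bins held 32, 47, 46, 34, 18, 24, 42 and 37 XPB peaks, pooled over the 13 chromosomes. The same bins held 17, 33, 22, 30, 15, 16, 24 and 26 XPD peaks. Both lists were highest from 250 to 500 kb, at 14.5 XPB peaks per Mb (10.6 to 19.2) and 10.2 XPD peaks per Mb (6.99 to 14.3). Chromosome 20 held 16 of these 47 XPB peaks and 7 of these 33 XPD peaks. Without chromosome 20, the XPB maximum would move to the bin from 500 to 750 kb. The XPD bins from 250 to 500 kb and from 750 to 1000 kb would then be level. With all 13 chromosomes, both lists were lowest from 1000 to 1250 kb, at 5.54 (3.28 to 8.75) and 4.62 (2.58 to 7.61). The 32 bins from 2 to 10 Mb ranged from 4 to 16.9 for XPB and from 1.85 to 8.92 for XPD. The XPB maximum lay inside that range and the XPD maximum above it. Both minima lay inside it: 4 of the 32 bins were as low or lower for XPB, and 11 for XPD. The outermost bin was not the densest: it had 9.85 XPB peaks per Mb (6.73 to 13.9) and 5.23 XPD peaks per Mb (3.05 to 8.37), each within counting error of its mean from 2 to 10 Mb. These densities use the full bin length, without removal of the assembly gap at the telomere.

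**Figure D1:**
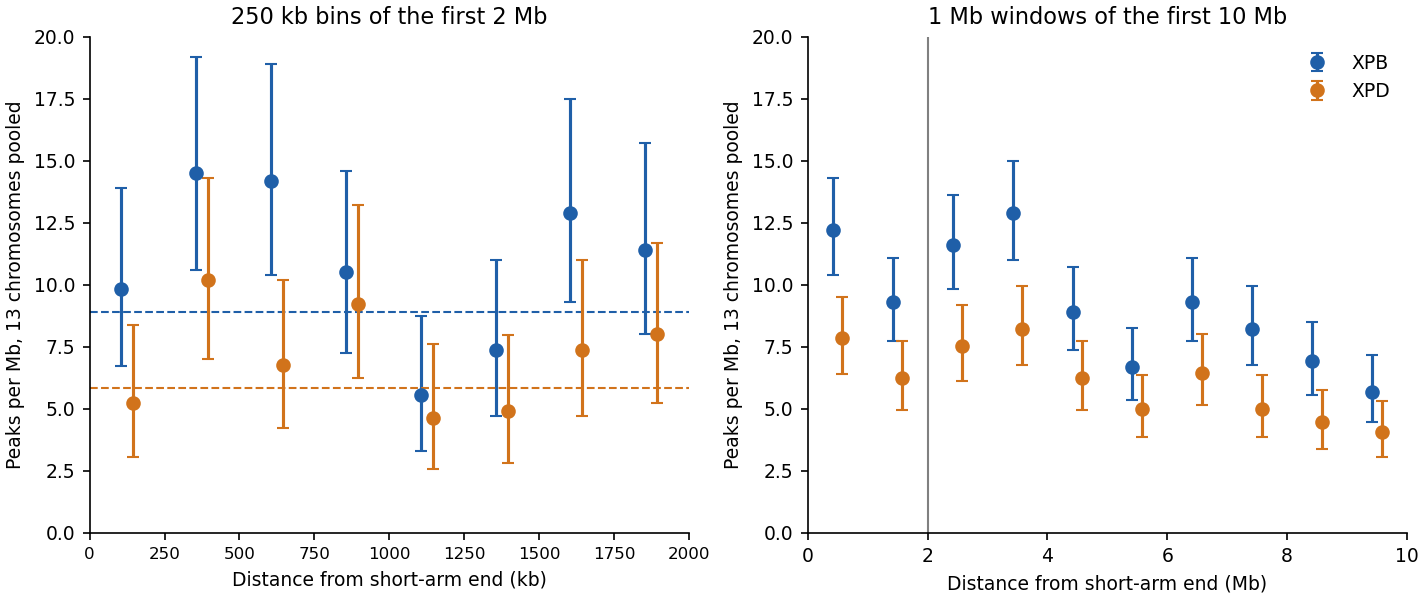
Peak density (peaks per Mb, 13 chromosomes pooled) by distance from the short-arm end for XPB and XPD, in 250 kb bins (left; dashed lines are the median of the 32 bins from 2 to 10 Mb, 8.92 for XPB and 5.85 for XPD) and in 1 Mb windows (right; the vertical line marks 2 Mb). Bars are 95% Poisson intervals. Within the first 2 Mb the lists share a low point just beyond 1 Mb, which lies inside the range of the 32 bins. Both have their highest 1 Mb window from 3 to 4 Mb, which is within counting error of the first Mb.

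The chromosomes differed more than the pooled ratio. XPB density in the first 2 Mb averaged 10.8 ± 6.75 peaks per Mb (SD over 13 chromosomes), against 8.79 ± 4.05 from 2 to 10 Mb, and XPD density averaged 7.04 ± 3.79 against 5.88 ± 2.79. The ratio of the 2 stretches exceeded 1 on 8 of 13 chromosomes for XPB and on 9 for XPD. It averaged 1.15 ± 0.414 for XPB (median 1.12) and 1.19 ± 0.451 for XPD (median 1.22). Chromosomes 6, 7, 8, 10, 16 and 20 lay above 1 in both lists, and chromosomes 9 and 18 below 1 in both.

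The ratio's counting interval lay wholly above 1 on chromosomes 16 and 20 in both lists and on no other of the 13. On chromosome 16 there were 45 XPB peaks (22.5 per Mb), against 107 from 2 to 10 Mb (13.4 per Mb), a ratio of 1.68 (1.16 to 2.40). XPD had 28 peaks there (14.0 per Mb), against 69 (8.62 per Mb), a ratio of 1.62 (1.01 to 2.55). On chromosome 20 there were 38 XPB peaks (19 per Mb), against 77 (9.62 per Mb), a ratio of 1.97 (1.30 to 2.95). For XPD the counts were 25 peaks (12.5 per Mb), against 56 (7 per Mb), a ratio of 1.79 (1.07 to 2.91). Without these 2 chromosomes, a pair chosen after their values were seen, the pooled XPB ratio was 1.08 (0.918 to 1.27) and the pooled XPD ratio 1.07 (0.875 to 1.30). Leaving out a pair picked for its high ratios lowers the pooled ratio in any case, so these values are a description only. The median ratio over all 13 chromosomes was 1.12 for XPB and 1.22 for XPD.

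At the other extreme, the first 2 Mb of chromosome 9 held 3 XPB peaks and 1 XPD peak, against 23 and 17 from 2 to 10 Mb. Chromosome 18 held 6 peaks of each list, against 42 XPB and 34 XPD peaks. The lists disagreed on chromosome 17, which of the 13 chromosomes had the most XPB and XPD peaks from 2 to 10 Mb. There XPB had 35 peaks, against 133 (ratio 1.05, 0.704 to 1.54), and XPD had 15, against 93 (ratio 0.645, 0.347 to 1.12), and these intervals overlap widely. Chromosome 12 had 35 XPB peaks, against 103 (ratio 1.36, 0.899 to 2.01), and 16 XPD peaks, against 65 (ratio 0.985, 0.532 to 1.72).

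**Figure D2:**
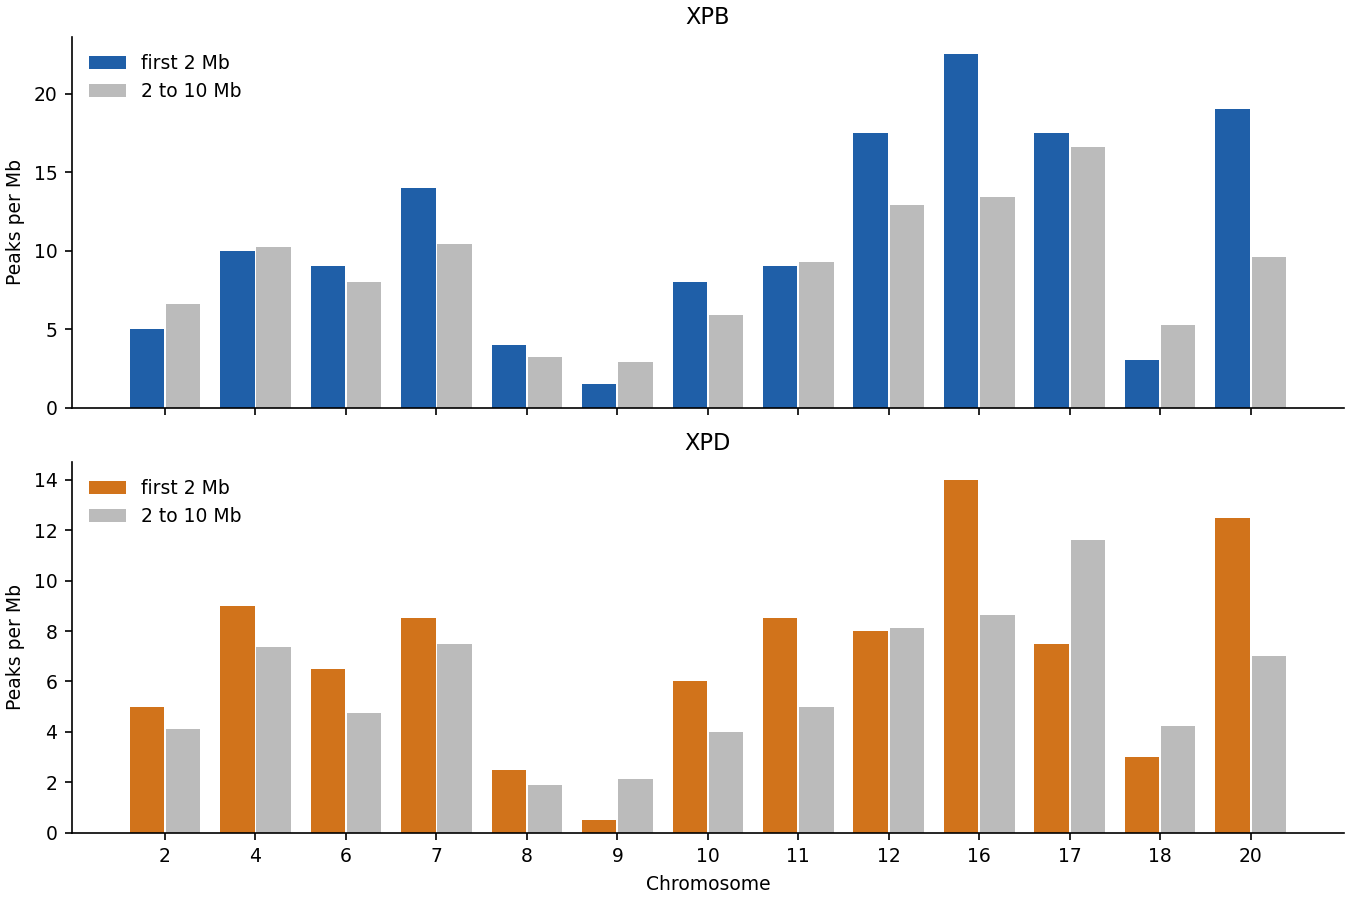
Peaks per Mb in the first 2 Mb (coloured bars) and from 2 to 10 Mb (grey bars) of each of the 13 chromosomes, XPB above and XPD below. Chromosomes 16 and 20 are the densest in the first 2 Mb in both lists, with 22.5 and 19 XPB peaks and 14.0 and 12.5 XPD peaks per Mb. For XPB, chromosomes 12 and 17 follow closely at 17.5 per Mb each.

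Peak numbers differed between bins of a chromosome. Of the 104 bins (8 on each of 13 chromosomes), 28 held no XPB peak, 35 no XPD peak and 19 neither. The 5 densest bins held 19.6% of the XPB and 18% of the XPD members. Chromosome 20 from 250 to 500 kb was the densest for XPB, with 16 XPB and 7 XPD peaks, and the 16 XPB summits had heights from 8 to 27 fragments. The next XPB bins were chromosome 12 from 500 to 750 kb (11 XPB and 3 XPD peaks) and chromosome 16 from 1500 to 1750 kb (10 and 6). Then came 3 bins with 9 XPB peaks each, on chromosome 6 from 250 to 500 kb, chromosome 16 from 500 to 750 kb and chromosome 17 from 1750 to 2000 kb. For XPD, 3 bins held 7 peaks each: chromosome 4 from 1750 to 2000 kb, chromosome 6 from 250 to 500 kb and the chromosome 20 bin. Chromosome 7 from 750 to 1000 kb had 7 XPB and 6 XPD peaks, and none of those XPD peaks overlapped an XPB peak. Of the bins in the first 2 Mb, 19.2% held 5 or more XPB peaks, against 17.1% of the 416 bins from 2 to 10 Mb, and 8.65% held 5 or more XPD peaks, against 9.62%. Empty bins were rarer, at 26.9% against 38.2% for XPB and 33.7% against 49.8% for XPD. Across the 104 bins, Spearman's rho between XPB and XPD counts was 0.67, against 0.73 across the 416 bins. This is a description, since bins share chromosomes and ties at 0.

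**Figure D3:**
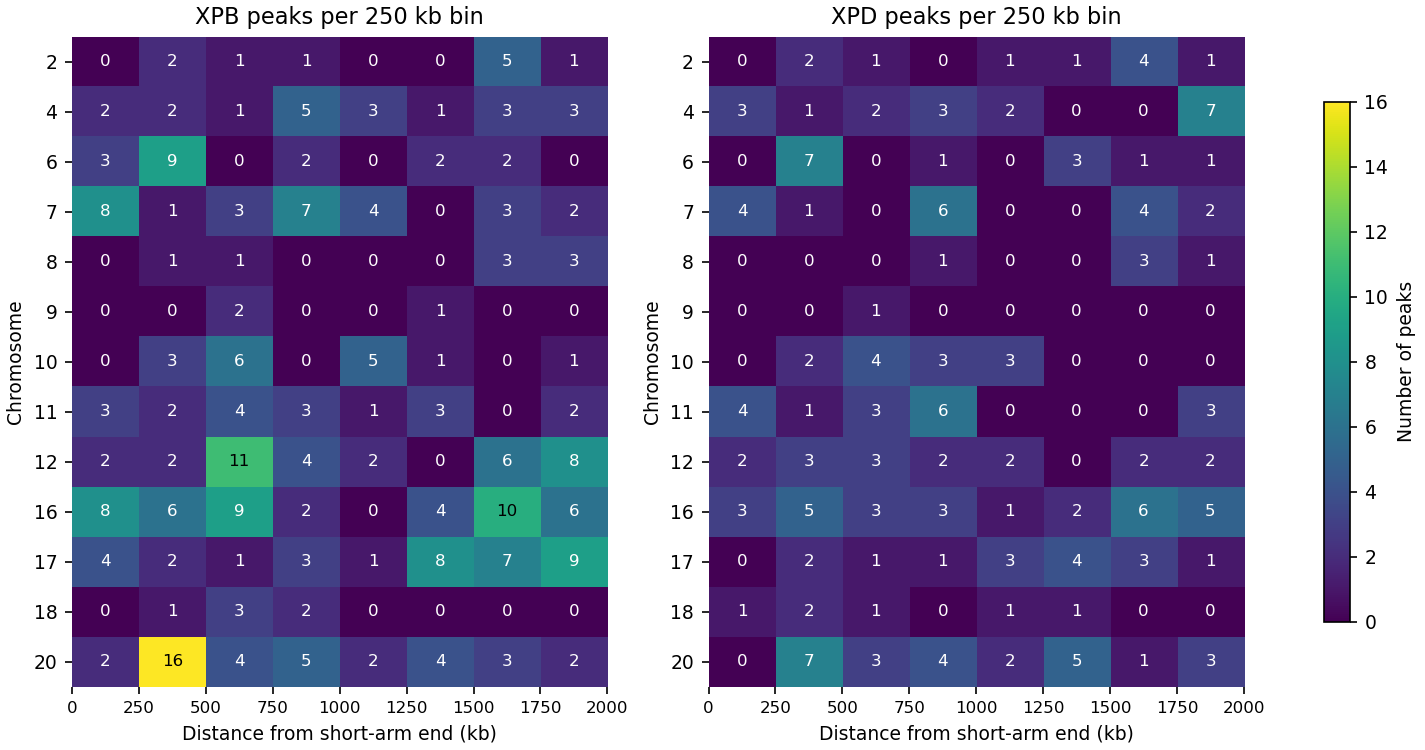
Number of XPB peaks (left) and XPD peaks (right) in each 250 kb bin (columns, distance from the short-arm end in kb) of the first 2 Mb of each chromosome (rows). The highest cell is chromosome 20 from 250 to 500 kb with 16 XPB peaks, and chromosome 9 has the emptiest row, with 3 XPB peaks and 1 XPD peak.

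Individual peaks were about as tall, wide and high-scoring near the ends as further in. Height is the number of fragments piled up at the summit and is not scaled to library depth, which is unknown. The median XPB height was 11 fragments (interval 10 to 11; quartiles 9 and 13; range 6 to 29), against 11 (11 to 11; quartiles 9 and 14; range 6 to 99). The median XPD height was 12 (12 to 13; quartiles 11 and 15; range 8 to 40), against 13 (12 to 13; quartiles 11 and 15; range 8 to 79). The tallest summits of the reference stretch had no counterpart among the members. That stretch holds more peaks (914 against 280 for XPB, 611 against 183 for XPD), which by itself favours a taller maximum. For XPB, 5.36% of members reached 20 fragments or more, against 5.03% from 2 to 10 Mb and 6.64% of the whole list. For XPD it was 5.46%, against 7.20% and 8.74%. The difference from 2 to 10 Mb was 0.324 points (-2.31 to 3.84) for XPB and -1.74 points (-5.13 to 2.92) for XPD. Both member shares lay below the whole-list ones.

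The median width was 845.5 bp (807 to 875), against 822 bp (803 to 846), for XPB. For XPD it was 959 bp (902 to 1023), against 907 bp (871 to 939). The score is the caller's, a transformed p-value, with 150 as the lowest listed. Its median was 188.2 (179.7 to 195.9), against 188.1 (184.5 to 191.8), for XPB, and 184.4 (179.2 to 191.4), against 186.5 (181.1 to 191.0), for XPD. In each of these comparisons of width and score the intervals overlapped. A score of 300 or more was reached by 43 XPB members (15.4%), against 141 of 914 (15.4%) from 2 to 10 Mb and 14.3% of the whole list. Among XPD members 21 (11.5%) reached it, against 78 of 611 (12.8%) and 11.9% of the whole list. These shares were close to the list-wide values.

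**Figure D4:**
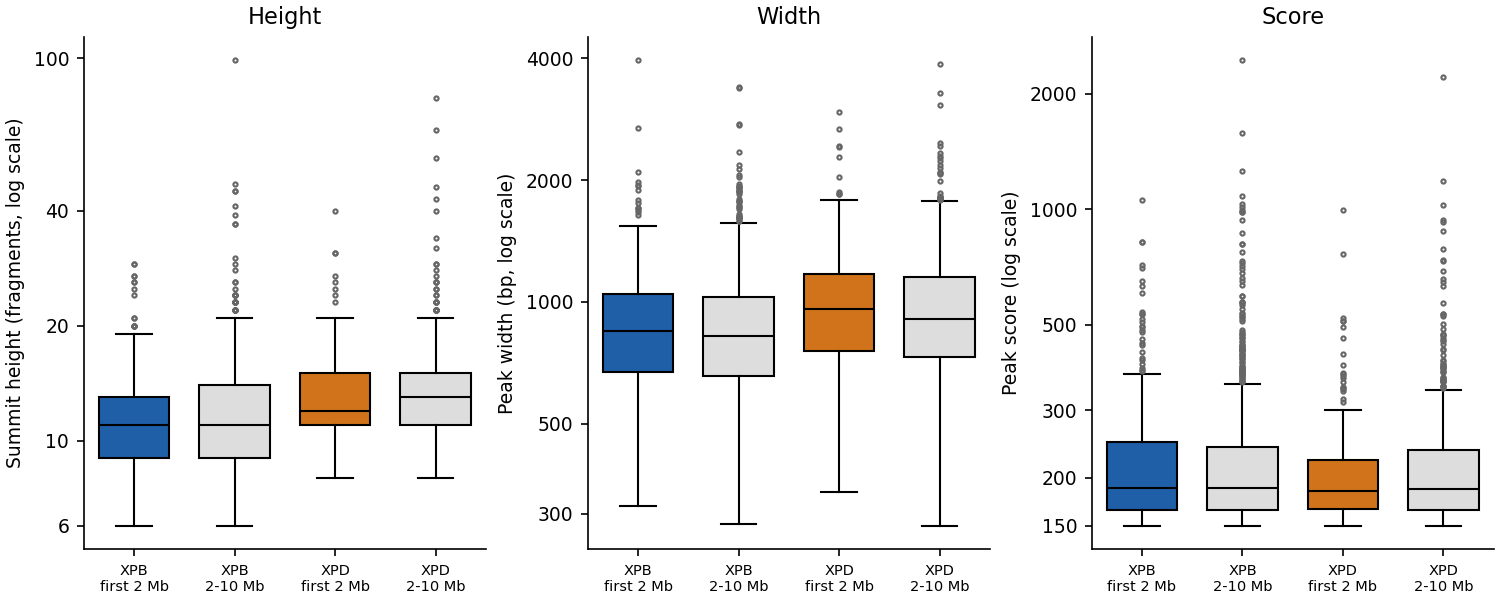
Summit height (fragments), peak width (bp) and peak score, all on log axes, for peaks in the first 2 Mb (coloured) and from 2 to 10 Mb (grey) of the 13 chromosomes, XPB left and XPD right in each panel. Boxes span the quartiles with the median as a line, whiskers reach 1.5 interquartile ranges and points lie beyond; the boxes nearly coincide, and the tallest summits (99 XPB and 79 XPD fragments) are in the 2 to 10 Mb group.

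The next comparison was whether XPB and XPD occupied the same places near the ends. Most members were in a single list, as in the lists at large. Of the 280 XPB members, 62 (22.1%, exact interval 17.4 to 27.5) overlapped an XPD peak by at least 1 bp, against 231 of 914 (25.3%) from 2 to 10 Mb and 26.6% of the whole list. Of the 183 XPD members, 60 (32.8%, 26 to 40.1) overlapped an XPB peak, against 232 of 611 (38%) and 38.7%. The difference from the 2 to 10 Mb stretch was -3.13 percentage points (-8.47 to 2.75) for XPB and -5.18 points (-12.7 to 2.85) for XPD, and both intervals include 0.

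Merging both lists gave 401 separate loci in the first 2 Mb, of which 60 (15%, 11.6 to 18.8) had both helicases, 218 XPB alone and 123 XPD alone. From 2 to 10 Mb there were 1284 loci, of which 222 (17.3%, 15.3 to 19.5) had both. Loci with both occurred at 2.31 per Mb, against 2.13 per Mb, a ratio of 1.08 (0.799 to 1.44). The ratio was 1.28 (1.09 to 1.49) for loci with XPB alone and 1.30 (1.05 to 1.60) for loci with XPD alone. The intervals of the 3 kinds of locus overlap, so a difference between them is not shown.

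Overlap followed score near the ends, as it did in the lists at large. It was 8.28% (4.48 to 13.7) of the XPB members scoring under 200, 25% (16 to 35.9) of those from 200 to under 300 and 67.4% (51.5 to 80.9) of those at 300 or more. From 2 to 10 Mb these shares were 11.5, 26.7 and 74.5%, and over the whole XPB list 13.3, 29.7 and 73.2%. For XPD members they were 20.9% (13.9 to 29.4), 40.4% (26.4 to 55.7) and 81.0% (58.1 to 94.6), against 22.2, 50.3 and 87.2%. Over the whole XPD list they were 24.9, 48.6 and 87.1%. In each of the 6 classes the share near the ends was lower than from 2 to 10 Mb, by less than its counting error. The XPB and XPD classes rest on largely the same overlaps, so they are not separate observations. Shared XPB members had a median score of 280.3, and the single-list ones 177.0. Shared XPD members had a median score of 223.1, and the single-list ones 176.3.

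The share of XPB members that were shared was lowest on chromosome 17. There 3 of 35 XPB members (8.57%, 1.80 to 23.1) overlapped an XPD peak, against 39 of 133 (29.3%, 21.8 to 37.8) from 2 to 10 Mb. Of its 15 XPD members 3 (20%, 4.33 to 48.1) overlapped, against 37 of 93 (39.8%, 29.8 to 50.5), and the XPD share was lower still on chromosome 6 (2 of 13) and chromosome 10 (2 of 12). Those 3 shared sites were among the strongest near any of these ends and are described below. By distance, the bin from 1250 to 1500 kb stood lowest, with 1 of 24 XPB and 1 of 16 XPD members shared. The bin and the chromosome were picked after their values were seen.

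The 60 mutual pairs (each peak the best overlap of the other) lay on all 13 chromosomes. Their summits were a median of 100.5 bp apart (quartiles 27.8 and 307.5), against 91.0 bp (24.0 and 284.5) for 222 pairs from 2 to 10 Mb. Within 100 bp were 50% (36.8 to 63.2), against 51.4% (44.6 to 58.1). Since library fragments were 400 to 700 bp long, summit positions are coarse. The median log2 ratio of XPB to XPD height was -0.05 (quartiles -0.35 and 0.15; range -1 to 1.07), against -0.10 (-0.30 and 0.15). Spearman's rho between the heights was 0.47 over the 60 pairs, against 0.64 over the 222, across sites that share the same pair of libraries and a score floor.

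**Figure D5:**
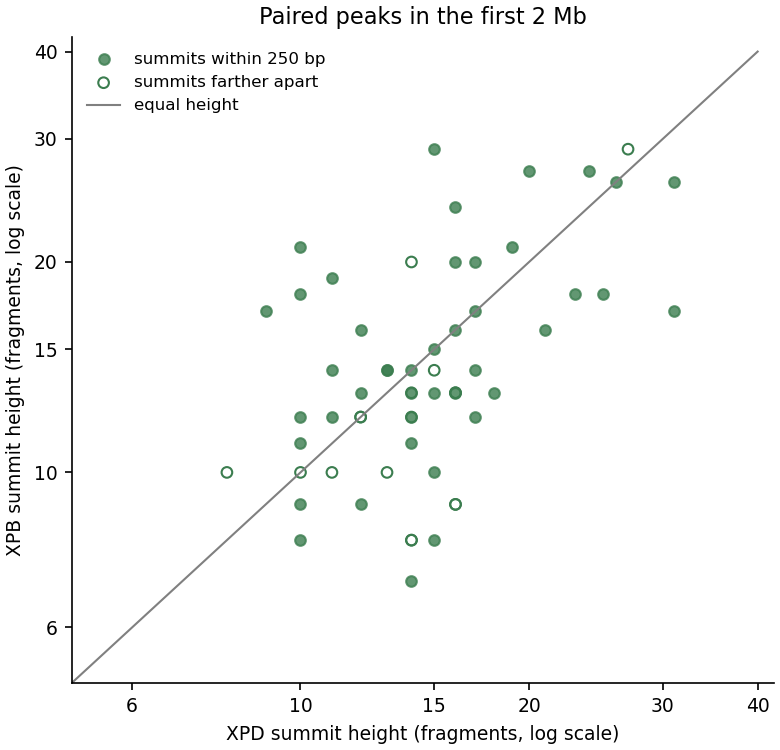
Summit height of XPB (vertical) against XPD (horizontal) in fragments, on log axes, for the 60 mutual pairs in the first 2 Mb; filled points have summits within 250 bp, open points farther apart, and the line marks equal height. Points scatter around the line, with a median log2 ratio of XPB to XPD of -0.05.

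Chromosome 20 carried 4 of the 6 tallest XPB summits near the ends. The peak at chr20:1396357-1397514 had 29 XPB and 15 XPD fragments. A pair of neighbours followed: chr20:352077-353740 with 27 XPB and 20 XPD fragments, and chr20:343605-344503 with 27 and 24. The site at chr20:861708-862844 had 26 fragments in each list, with summits 9 bp apart. All 4 overlapped an XPD peak. The XPD peak at the second of the neighbours, chr20:341816-344767, was the widest XPD member at 2952 bp and had the second highest XPD score, 765.5.

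On chromosome 17 all 3 shared sites were prominent. The XPD peak at chr17:1013256-1015666 had the highest score of any XPD member, 996.1 (rank 81 of the whole list), with 25 XPD and 18 XPB fragments and an XPB score of 632.2. The XPB peak at chr17:1619674-1621611 scored 821.5 with 16 fragments, and its XPD partner scored 419.7 with 21. At chr17:1974004-1975713 XPB scored 717.8 with 24 fragments and XPD 521.8 with 16. The summits of the last lay 17 bp apart.

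Other prominent shared sites were on chromosomes 7, 12 and 16. At chr7:1560131-1561025 XPB had 26 fragments and XPD 31, and a second site close by, chr7:1571482-1573166, scored 492.7 for XPB and 493.0 for XPD. At chr12:1920752-1921665 both lists had 16 fragments, with scores of 603.7 for XPB and 511.8 for XPD. At chr16:740142-741215 XPB had 17 fragments and XPD 31, with summits 14 bp apart.

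The first 100 kb held several of the most extreme members. It had 10 XPB peaks, on chromosomes 4, 7, 17 and 20, and 7 XPD peaks, on chromosomes 4, 7, 12, 16 and 18, and 2 of each list were shared. These are 7.69 XPB peaks per Mb (3.69 to 14.1) and 5.38 XPD peaks per Mb (2.16 to 11.1), within counting error of the densities from 2 to 10 Mb. On chromosome 4 the XPB peak at chr4:52675-55357 had the highest score of any XPB member, 1054.3 (rank 111), and 29 fragments. Its XPD partner at chr4:52747-55419 had 27 fragments but a score of 355.6, and the summits lay 1504 bp apart within these wide peaks. On either side stood tall peaks of a single list: XPB at chr4:49673-50505 with 25 fragments and a score of only 177.2, and XPD at chr4:67587-68459 with 40 fragments, the tallest XPD member, and a score of 253.1. Chromosome 7 had the widest member, the XPB peak at chr7:62404-66361, which spanned 3958 bp, scored 702.9 and reached only 11 fragments, and XPD had no peak there. How reads matching several places were handled is not given in the sources used here, and its part in these outer peaks was not tested.

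The outermost summit differed widely between chromosomes. For XPB it ranged from 43560 on chromosome 7 to 694775 on chromosome 9, with a median of 198887. For XPD it ranged from 13208 on chromosome 18 to 801293 on chromosome 8, with a median of 254744. The XPD peak on chromosome 18, chr18:12441-13471, had 15 fragments, a score of 336.7 and no XPB peak over it, and the outermost XPB peak of that chromosome was at chr18:267668-269090 with 18 fragments. The lists shared their outermost site on chromosome 7 only, where XPB had 9 fragments and XPD 16. The other single-list summits named for height were 2 XPB peaks of 20 fragments, at chr17:1690533-1691901 (score 516.7) and chr12:1921708-1922678 (159.8), and XPD peaks of 19 fragments at chr10:766185-766786 and of 18 at chr17:1243449-1244123.

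The limit of 2 Mb fell in no natural gap. The last 100 kb inside it held 22 XPB and 8 XPD peaks, and the first 100 kb outside it 16 and 5. The XPB peaks nearest the limit were chr16:1998371-1998931 inside (12 fragments, score 160.9) and chr8:1999853-2001080 outside (10 fragments, score 207.2). The nearest XPD peaks were chr6:1991980-1992653 inside (13 fragments, score 155.3) and chr7:2007866-2008864 outside (9 fragments, score 166.3).

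Peaks of the same list often lay close together. Another summit of its own list lay within 10 kb of 120 XPB members (42.9%, 37.0 to 48.9), against 37.3% from 2 to 10 Mb and 41.8% of the whole list. For XPD it was 50 members (27.3%, 21.0 to 34.4), against 34.7% and 34.5%. The difference from 2 to 10 Mb was 5.55 points (-0.946 to 12.2) for XPB and -7.37 points (-14.5 to 0.416) for XPD, and both intervals include 0. Among XPD members the share was 35.3% (26.1 to 45.4) in the first Mb and 17.3% (9.78 to 27.3) in the second.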

How the data were processed

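ChIP and input DNA from HT1080 were sequenced on the Genome Analyzer. Per the submitters' processing notes, Bowtie 0.12.7 aligned the reads to hg19 and MACS 1.4 called the peaks, and a list was deposited for each ChIP separately. The caller settings, the control and the read depth are not given in the sources used here. In the usual MACS layout, which was assumed, each deposited score is a p-value of the caller on a -10 log10 scale, and each deposited signal value is the pileup height at a summit. Interval and summit files were joined by peak name, and starts were made 1-based.

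Computed here were counts per Mb with exact Poisson intervals, ratios with exact conditional binomial intervals, shares with Clopper-Pearson intervals, differences of shares with Newcombe intervals and medians with binomial order-statistic intervals, all at 95%. With 1 library per antibody and no replicate, no test was made. Members, lists and comparisons were chosen with earlier results of these data known. Named peaks were the 6 tallest, 6 highest-scoring, 3 tallest single-list and 2 widest of each list, the outermost of each chromosome, the nearest to 2 Mb and the densest bins; others are examples of shared or neighbouring sites. The functions were tested on simulated data. Python 3.11.15, numpy 2.4.6, pandas 2.3.3, scipy 1.17.1 and matplotlib 3.10.9 were used.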

Additional observations from a re-analysis of the deposited data

How the results depend on the processing

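Of 172 alternative values, 154 stayed within the interval of the reported one, 16 moved outside it and 2 changed direction. Most of the 172 left out 1 chromosome at a time, which keeps nearly all peaks, and all of those stayed within the interval. Every value that moved or changed direction came from the other settings, so the count of 154 overstates the stability of the results. The density ratio (1.23 for XPB and 1.20 for XPD) turned to 0.966 and 0.960 with 2 to 5 Mb as the reference, and was 1.66 and 1.59 with the rest of the chromosome beyond 10 Mb, a stretch that includes the centromere. The XPB ratio was 1.28 (1.04 to 1.57) at scores of at least 200 and 1.22 (0.846 to 1.73) at 300, and the XPD ratio 1.13 (0.849 to 1.48) and 1.08 (0.632 to 1.76), so the interval included 1 in all of these but XPB at 200. Leaving out 1 chromosome at a time gave 1.16 to 1.26 for XPB and 1.14 to 1.30 for XPD, lowest without chromosome 16 or 20 in both lists; the interval then included 1 in 1 of 13 cases for XPB and 6 of 13 for XPD. Overlap was 15.4% for XPB and 23.5% for XPD with summits within 250 bp. It was 30.9% for XPB with lists of equal length, and 47.1% for XPD with scores of at least 200 in both lists. Under all 5 overlap settings the share was lower near the ends than from 2 to 10 Mb. The interval of the difference included 0 each time. These settings reuse the same peaks, so their agreement is not independent. Among shared members alone, median height was 13 and 14 fragments, width 925.5 and 1040.5 bp and score 280.3 and 223.1 for XPB and XPD. At scores of at least 200, median height was 13 and 14 fragments and width 1029 and 1159.5 bp. No paired analysis was possible because each antibody has 1 library. With depth unknown and a score floor, a site missing from a list may still be bound.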

Other observations

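Of the chromosomes outside the 13, only chromosomes 1, 3, 5, 19 and X were looked at. The rest, chromosome Y among them, were not. These 5 did not share a pattern. Values follow for the first 2 Mb against 2 to 10 Mb. On chromosome 5 the density was 67.0 per Mb for XPB and 46.0 for XPD, against 16 and 13, with 38.1% of its XPB peaks shared, against 17.2%. On chromosome 19 it was 22.0 and 12.5, against 20.8 and 13.6. On chromosome 1 it was 7.50 and 5, against 15.2 and 10, and none of its 15 XPB or 10 XPD peaks in the first 2 Mb was shared. Chromosomes 3 and X had no listed peak of either list in the first 2 Mb. Which chromosomes are pooled therefore bears on any density near the ends.

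The long arms of the 13 chromosomes were looked at in the same way, a comparison added after the data were seen. Since chromosome lengths were not used, each arm was measured from its outermost summit, which favours the outer stretch because it starts at a peak. The outer 2 Mb of the long arms held 12.1 XPB peaks per Mb, against 9.92 in the next 8 Mb, a ratio of 1.22 (1.07 to 1.38), and 8.81 XPD peaks per Mb, against 7.05, a ratio of 1.25 (1.07 to 1.45). On the short arms, measured likewise, the XPB ratio was 1.34 (1.18 to 1.53) and the XPD ratio 1.35 (1.15 to 1.59). The intervals of the arms overlap, so a difference between short and long arms is not shown.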
